A study of Mus musculus with 12 samples.

Results

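Testes of mice at postnatal day (PND) 21 were compared with testes at PND 17, which makes 4 of the 10 mice and 4 of the 12 libraries of a series on the first wave of spermatogenesis. The 4 libraries were taken by their labels, with 2 mice at each age. The mice of both ages belonged to the inbred strain C57BL/6NHsd, carried no named allele and received no named treatment, and whole testes were used, so the germ cells were read with the somatic cells around them. The other 6 mice were of PND 7, 14 and 28. The measure is the deposited count per gene of RNA-seq reads from a SOLiD 4, made after ribosomal RNA was removed.

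In the mouse the first germ cells to enter meiosis do so together, so the age of a juvenile testis sets its most advanced germ cell. At PND 17 the most advanced cells are late pachytene spermatocytes, which have paired and are recombining their chromosomes. At PND 21 round spermatids are present, the haploid cells that begin to build the acrosome, the cap of enzymes over the sperm nucleus, and the flagellum. They later replace their histones by transition proteins and protamines. In whole tissue, more cells of a type and more RNA per cell of that type cannot be told apart.

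Levels are given as CPM, counts scaled to the library total after TMM correction, and fold changes as the log2 ratio of PND 21 to PND 17. The totals lay between 3994026 and 13559548 counts per mouse. PND 17 mouse 1 was 3.39 times as deep as the other mouse of its age, and PND 21 mouse 2 was 1.56 times as deep. The share of mitochondrial ribosomal RNA lay between 16.96% and 27.42%, lowest in PND 21 mouse 1. A group whose mice were both at 0 allows up to 3 counts over both, which is 0.162 CPM at PND 17 and 0.302 CPM at PND 21 and covers counting error only. A gene is called higher or lower here at an edgeR adjusted p under 0.05, by the Benjamini-Hochberg method over every gene tested, and a 2-fold or larger change. All 10 mice stood in the fit and shared the estimate of the spread, and p-values measure the spread between these mice. No source used here says whether counting used strand, so counts of overlapping genes are uncertain.

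Several libraries stood apart in ways that touch the results. PND 14 mouse 1, which enters through the shared spread, held transcripts of late spermatids that PND 14 mouse 2 had at far lower levels. PND 17 mouse 1 held transcripts of the epididymis and vas deferens, and so, at a lower level, did PND 7 mouse 2, which is in the shared fit. The PND 21 mice differed by transcript length. The values are given beside some of the genes they touch. PND 14 mouse 1 and mouse 2 also held 60.9 and 3.02 CPM of Akap4 and 18.9 and 1.71 CPM of Odf1. Gapdhs was at 24.1 and 0.656 CPM in these 2 mice, while Ldhc was at 475 and 942 CPM.

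Between PND 17 and PND 21, 1743 of the 16860 genes tested were called, which is 10.3%. Of these, 1566 were higher at PND 21, or 9.29% of the genes tested, and 177 were lower, or 1.05%. The median log2 fold change was 2.17 over the genes called higher, -1.21 over those called lower and 0.0 over all genes tested. A change of at least 4-fold was seen in 868 of the genes called higher and in 24 of those called lower. The genes called higher went from 5.65% and 3.98% of all counts to 16.1% and 11.6%, and the genes called lower from 1.28% and 1.32% to 0.488% and 0.534%.

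**Figure D1:**
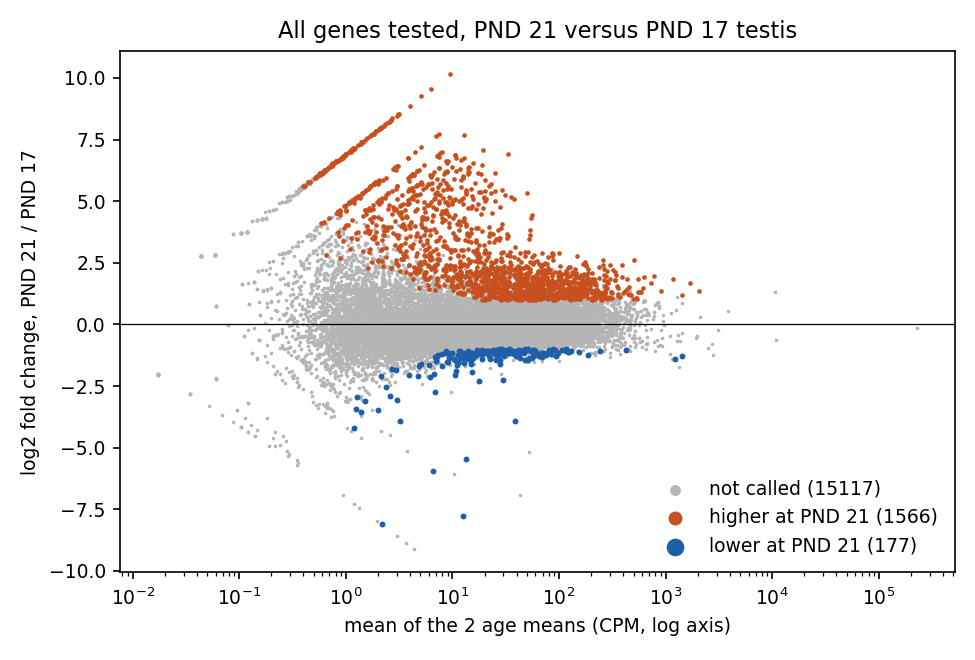
Each point is a gene tested, with the mean of the 2 age means in CPM on a log axis and edgeR's log2 fold change of PND 21 over PND 17. The 1566 genes called higher reach far above 4-fold at low and middle levels, and most of the 177 genes called lower lie close to a 2-fold fall. The straight lines of points at the upper left are genes with 0 or few counts at PND 17.

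The starting level of the rising genes varied widely. At PND 17, 726 of the genes called higher already had a mean of at least 10 CPM, 337 had 1 to 10 CPM and 503 had under 1 CPM. For 117 of them both PND 17 mice had 0 counts. Among the genes called lower, 157 had at least 10 CPM at PND 17 and 15 had under 1 CPM at PND 21. The 2 PND 21 mice both lay above both PND 17 mice for all 1566 genes called higher, and both lay below for 176 of the 177 called lower, beside the 10.3% called. Among all genes tested the same held for 5708 and 5218 genes.

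The counts of calls depended on which mice were in the fit. Without PND 17 mouse 1, 558 genes were called higher and 18 lower, and without PND 17 mouse 2, 255 and 11. Without PND 21 mouse 1 the counts were 487 and 5, and without PND 21 mouse 2 they were 1414 and 446. A lone mouse is taken in these fits to vary like the mice of the other ages. Of 108 called gene entries picked by the naming rule, 21 were called in all 4 of these fits, 39 in 1 and 14 in none.

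The promoters of rising genes are shown first, with sequences for some of the largest rises by fold and for Ldhc. RefSeq promoter windows (250 bases before to 50 after the start, GRCm38.p6) were matched by symbol for 12411 of the genes tested. The letters GTTGCCATG, a motif of the RFX family of factors that acts in ciliated cells and spermatids, were found on either strand in the windows of 37 of 1186 genes called higher, or 3.12%. The share was 0.919% over all genes tested, 0.0% of the 135 genes called lower that had a window and 0.773% of all 32851 RefSeq windows. The full cAMP response element TGACGTCA, to which CREM binds, was in 3.29% of the genes called higher, 2.22% of those called lower and 3.41% of all genes tested. Its shorter form TGACG, which every full element also holds, was in 26.1%, 28.1% and 32.9%. No test was made of these shares, and a match is not a site shown to be bound.

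Of the 12 gene entries with the largest rises, which are 11 genes since Fam71e2 is listed under 2 identifiers, 7 had a RefSeq window, none held the full element, and 4921528O07Rik and Ttc23l held the RFX motif, in capitals in the 250 bases before the start. The plan was to print the largest rises with the full element, and those with the RFX motif are printed in their place. Ldhc, the lactate dehydrogenase of the testis, was fixed in the plan for printing and held 2 copies of TGACG, in capitals. In the 250 bases before the start, a second window of Ldhc and the windows of Acrv1, Akap4 and Tnp1 held none of the 3 motifs. 4921528O07Rik on chr1:163085671-163085920, minus strand, Ttc23l on chr15:10558670-10558919, minus strand, and Ldhc on chr7:46861013-46861262, plus strand, read 5′ to 3′ along the gene as follows.
4921528O07Rik: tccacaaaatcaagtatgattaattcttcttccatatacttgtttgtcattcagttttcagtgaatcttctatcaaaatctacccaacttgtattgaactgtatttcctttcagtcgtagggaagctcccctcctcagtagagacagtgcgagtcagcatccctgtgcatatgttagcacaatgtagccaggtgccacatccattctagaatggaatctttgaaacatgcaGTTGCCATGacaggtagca
Ttc23l: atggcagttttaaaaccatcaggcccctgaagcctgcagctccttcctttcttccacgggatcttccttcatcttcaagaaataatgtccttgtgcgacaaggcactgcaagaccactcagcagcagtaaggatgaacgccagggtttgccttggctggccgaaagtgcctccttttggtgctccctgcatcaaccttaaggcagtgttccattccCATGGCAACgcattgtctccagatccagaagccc
Ldhc: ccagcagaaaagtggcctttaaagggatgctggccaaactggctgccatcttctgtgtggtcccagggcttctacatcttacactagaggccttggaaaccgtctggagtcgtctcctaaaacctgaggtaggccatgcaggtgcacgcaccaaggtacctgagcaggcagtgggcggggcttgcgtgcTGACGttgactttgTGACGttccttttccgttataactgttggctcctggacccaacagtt

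4921528O07Rik had 0.209 and 0.242 CPM at PND 17 and 22.6 and 24.8 CPM at PND 21 (log2 fold change 6.67, SE 0.88, edgeR adjusted p = 0.00295). Ttc23l, a tetratricopeptide repeat gene, had 0.348 and 0.242 CPM at PND 17 and 31.9 and 24.8 CPM at PND 21 (6.39, SE 0.92, adjusted p = 0.00373). Both were near the limit of detection in both younger mice. In a second window of Ttc23l that starts 1 base away the site is the same. Of the 37 gene entries with the site, 21 held it within 100 bases before the start.

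Genes of the acrosome rose together. Of 30 listed members, all tested, 25 were called higher and none lower, beside the 9.29% of all genes called higher, and the median log2 fold change was 3.15. Acrv1, an acrosomal matrix protein (mm9 chr9:36500805-36506422), had 0.905 and 1.45 CPM at PND 17 and 42.4 and 34.9 CPM at PND 21 (log2 fold change 5.16, SE 0.64, edgeR adjusted p = 0.0026). Spaca3, a lysozyme-like acrosomal protein, rose from 0.278 and 0.242 CPM to 22.9 and 19.7 CPM (6.22, SE 0.7, adjusted p = 0.00182). Spaca4 was at 0 in both PND 17 mice and at 4.76 and 4.89 CPM at PND 21, at least 29.8-fold higher. Acr, the protease acrosin, had 14.4 and 12.3 CPM at PND 17 and then 84.1 and 41.2 CPM (2.21, SE 0.43, adjusted p = 0.0102).

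Other acrosomal genes had high levels before the change. Zpbp, which binds the zona pellucida, rose from 111 and 70.3 CPM to 300 and 298 CPM (log2 fold change 1.72, SE 0.48, edgeR adjusted p = 0.0432) and was not called in any fit without 1 of the 4 mice. Atp8b3, a phospholipid flippase of the acrosomal region, went from 325 and 190 CPM to 1185 and 798 CPM (1.94, SE 0.31, adjusted p = 0.00497). The 5 members not called were Pick1, Gopc, Agfg1, Csnk2a2 and Rab3a, with log2 fold changes between 0.28 and 0.84. Leaving out PND 17 mouse 1 or mouse 2 left 15 members called higher, and leaving out PND 21 mouse 1 or mouse 2 left 18 and 22. Beside the members called lower by edgeR, which are 0 in the 9 lists of spermatid genes given here and in the next paragraphs, the nuclear protein and regulator lists each had 1 member lower at an unadjusted p under 0.05 and the others none. DESeq2 called none lower in these lists, and limma called 1 regulator lower. DESeq2 and limma called 25 and 21 acrosome genes higher, 19 and 11 of the outer dense fibre list and 38 and 25 of the axoneme list. For the sperm surface they called 23 and 11 higher, for ion channels 14 and 8 and for kinases 14 and 5. For the energy list the counts were 17 and 10, and for regulators 15 and 7. The limma rule also required a difference of 10 RPKM.

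**Figure D2:**
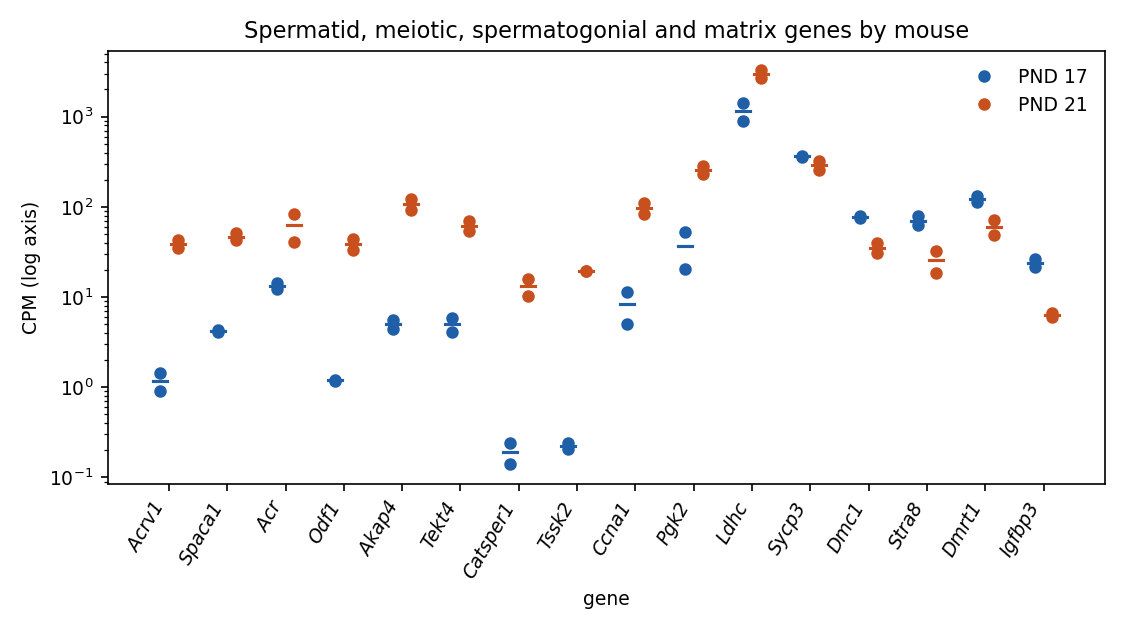
Each dot is a mouse and each short line the mean of the 2 mice of an age, in CPM on a log axis, for 16 genes. Acrv1 to Ldhc stand higher in both PND 21 mice, by the largest ratios for Catsper1 and Tssk2, while Dmc1, Stra8, Dmrt1 and Igfbp3 stand lower and Sycp3 did not pass.

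Genes of the outer dense fibres and the fibrous sheath, the cytoskeleton of the sperm tail, were called higher in 17 of 25 members tested and lower in none. This is 68.0% higher, beside 9.29% of all genes, and the median log2 fold change was 3.05. Odf1, an outer dense fibre protein, had 1.18 and 1.21 CPM at PND 17 and 44.5 and 33.3 CPM at PND 21 (5.01, SE 0.86, edgeR adjusted p = 0.00583). Akap4, the X-linked anchor of protein kinase A in the sheath, had 4.46 and 5.56 CPM and then 121 and 91.3 CPM (4.44, SE 1.02, adjusted p = 0.0223). Gapdhs, the glycolytic enzyme of the sheath, rose from 0.905 and 1.45 CPM to 35.5 and 22.0 CPM. Groups of the 2 ages did not overlap for any of these, which held for all 1566 genes called higher. Both PND 21 mice lay above both PND 17 mice for 5708 of the 16860 genes tested. The count depended on the mice, with 3 members called without PND 17 mouse 1, 2 without PND 17 mouse 2, 7 without PND 21 mouse 1 and 16 without PND 21 mouse 2.

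Of the axoneme and cilium list, which holds the dyneins, radial spokes and tektins of the flagellar core, 31 of 54 members tested were called higher and none lower. The share higher was 57.4%, beside 9.29% of all genes, and the median log2 fold change was 1.58. Tekt4, a tektin of the flagellum, rose from 5.85 and 4.11 CPM to 53.4 and 69.5 CPM (3.57, SE 0.33, edgeR adjusted p = 0.000966). Foxj1, a transcription factor of motile cilia, rose from 1.67 and 0.483 CPM to 21.9 and 26.0 CPM (4.19, SE 0.64, adjusted p = 0.00376). Dnaic2, a dynein intermediate chain, rose from 6.41 and 3.86 CPM to 59.1 and 61.9 CPM. In these 3 genes the PND 21 mice lay close to each other.

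Of 13 dynein heavy chains tested, whose messenger RNAs are among the longest, 9 were called higher, beside 9.29% of all genes, and none lower. All 13 had more CPM in PND 21 mouse 1 than in mouse 2. Dnahc3 had 0.627 and 0.242 CPM at PND 17 and 92.9 and 40.0 CPM at PND 21 (log2 fold change 6.93, SE 1.11, edgeR adjusted p = 0.00548). Dnahc17 had 89.8 and 71.5 CPM at PND 17 and 631 and 239 CPM at PND 21, and Dnahc8 862 and 741 CPM and then 3322 and 1819 CPM. Without PND 17 mouse 1, 16 members of the list were called, without PND 17 mouse 2 there were 4, without PND 21 mouse 1 there were 13 and without PND 21 mouse 2 there were 30.

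The length of the transcript moved with this difference between mice. Over tested genes whose mean reached 10 CPM, the median log2 ratio of PND 21 mouse 1 to mouse 2 was -0.6 for 576 genes with exons under 1 kb and 0.28 for 1201 genes over 8 kb. Among genes called higher, it went from -0.01 under 1 kb to 0.75 over 8 kb. At PND 17 the ratio ran the other way, from 0.22 to -0.19. The median log2 fold change between the ages was -0.34 in the shortest class, 0.16 at 1 to 2 kb and 0.01 to 0.03 in the longer classes. From the shortest class to the longest, 11.5%, 16.9%, 10.9%, 8.74% and 6.74% of these genes were called higher. The share called lower was 1.91% in the shortest class and 0.583% in the longest. The part of length in the calls was not tested.

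**Figure D3:**
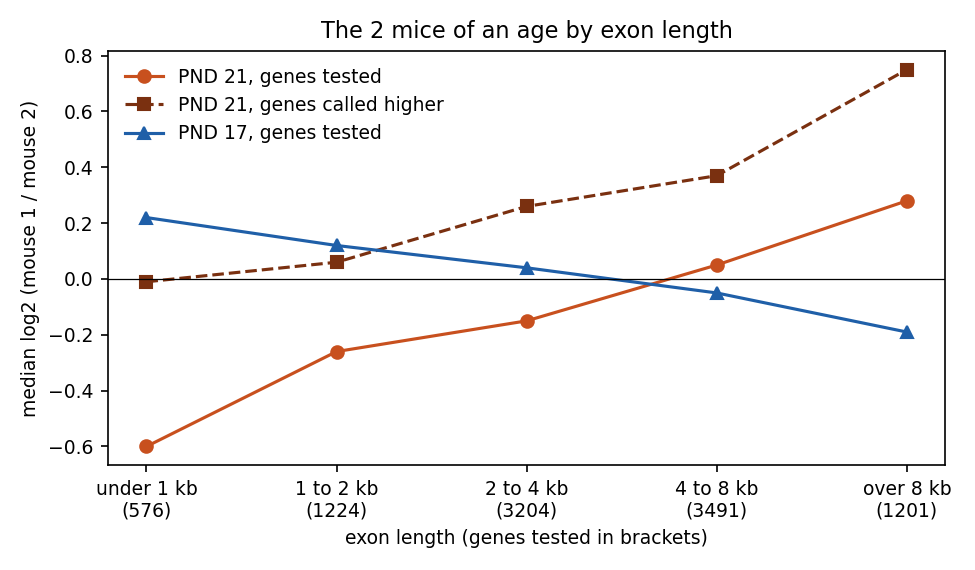
Median log2 ratio of mouse 1 to mouse 2 of an age (y axis) for genes of 10 CPM or more, in 5 classes of exon length (x axis, number of genes tested in brackets). The ratio of the PND 21 mice climbs from -0.6 to 0.28 with length, and that of the PND 17 mice falls from 0.22 to -0.19.

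Proteins of the sperm surface and the chaperones that fold them were called higher in 22 of 31 members and lower in none. These calls make 71.0%, beside 9.29% of all genes, and the median log2 fold change was 2.39. Adam24, a testis member of the ADAM family of membrane proteases, had 0.278 and 0.242 CPM at PND 17 and 44.8 and 32.8 CPM at PND 21 (7.08, SE 0.75, edgeR adjusted p = 0.00162). Pdilt, a testis chaperone of the endoplasmic reticulum, had 0.418 and 0.0 CPM and then 30.3 and 31.2 CPM (6.54, SE 0.85, adjusted p = 0.0029). Adam3, needed for sperm to bind the zona, was already at 174 and 74.6 CPM and rose to 688 and 625 CPM (2.39, SE 0.42, adjusted p = 0.0062). Clgn, a chaperone of fertilin, had 356 and 321 CPM and then 796 and 674 CPM, which did not pass (1.12, SE 0.6, adjusted p = 0.249). The members called include Adam6a and Adam6b, and Adam26a and Adam26b, close copies whose values are uncertain where reads were split between them. Members called numbered 10 and 8 without PND 17 mouse 1 or mouse 2, and without PND 21 mouse 1 or mouse 2, 12 and 20.

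Ion channels and cAMP signalling of sperm were called higher in 14 of 23 members tested, or 60.9% beside 9.29% of all genes, and lower in none. The median log2 fold change was 1.79. Catsper1, a pore subunit of the sperm calcium channel, had 0.139 and 0.242 CPM at PND 17 and 16 and 10.3 CPM at PND 21 (6.17, SE 0.98, edgeR adjusted p = 0.00503). Catsper2, another pore subunit, was at 23.3 and 11.6 CPM and then at 146 and 66.0 CPM (2.56, SE 0.55, adjusted p = 0.0148). Catsper3 and Catsper4, the other pore subunits, were under 1 CPM at PND 17 like Catsper1, and all 4 rose. Kcnu1, the sperm potassium channel, rose from 1.39 and 1.21 CPM to 28.6 and 20.4 CPM, and Adcy10, the soluble adenylyl cyclase, from 40.0 and 25.8 CPM to 210 and 135 CPM. Leaving out mouse 1 of either age left 5 members called, and leaving out mouse 2 left 4 at PND 17 and 12 at PND 21.

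Kinases and phosphatases of spermatids were called higher in 12 of 29 members tested, or 41.4% beside 9.29% of all genes, and lower in none. The median log2 fold change was 1.07. Tssk2, a testis-specific serine kinase, had 0.209 and 0.242 CPM at PND 17 and 19.5 CPM in both PND 21 mice (6.39, SE 1.06, edgeR adjusted p = 0.00584). Tssk1 and Tssk2 are similar in sequence, and Tssk1 rose by 4.3 on the log2 scale, from 1.11 and 1.45 CPM to 24.8 and 23.7 CPM. Tssk6, of the same family, had 0.696 and 0.725 CPM at PND 17 and 0.238 and 1.57 CPM at PND 21, and the ages overlapped. Without PND 17 mouse 1 or mouse 2, 1 and 3 members were called, and without PND 21 mouse 1 or mouse 2, 5 and 10.

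Of a list of testis energy genes, 15 of 28 members tested were called higher, or 53.6% beside 9.29% of all genes, and none lower. The median log2 fold change was 1.68. Besides testis forms of enzymes the list holds transporters such as Slc2a3 and the more general enzymes Hk1, Gpi1, Tpi1 and Dld. It also holds Crisp2, Fabp9, Gstm5 and Dbil5, which are not energy enzymes. Ldhc, whose promoter is given above, was among the most abundant messages, with 1427 and 894 CPM at PND 17 and 2705 and 3250 CPM at PND 21 (1.36, SE 0.38, edgeR adjusted p = 0.0446). No fit without one of the 4 mice called it. Slc2a3, a glucose transporter, had 1077 and 648 CPM and then 1973 and 1968 CPM (1.19, SE 0.33, adjusted p = 0.0425) and, like Ldhc, lost its call whenever 1 of the 4 mice was left out. Acsbg2, an acyl-CoA synthetase, started near 0, with 0.348 and 0.0 CPM and then 18.6 and 13.8 CPM (5.85, SE 1.02, adjusted p = 0.0072). Pdha2, the testis subunit of pyruvate dehydrogenase, had 99.7 and 82.4 CPM and then 151 and 141 CPM and did not pass (0.67, SE 0.62, adjusted p = 0.507). The number called was 7 and 3 without PND 17 mouse 1 or mouse 2 and 6 and 12 without PND 21 mouse 1 or mouse 2.

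Transcription regulators of germ cells were called higher in 12 of 27 members tested, or 44.4% beside 9.29% of all genes, and lower in none. The median log2 fold change was 1.34. Crem, the activator of many spermatid genes, had 90.7 and 90.1 CPM at PND 17 and 138 and 187 CPM at PND 21 and did not pass (0.85, SE 0.26, edgeR adjusted p = 0.0588). Fhl5, its coactivator ACT, rose from 1.11 and 1.45 CPM to 10.7 and 9.6 CPM (3.04, SE 0.83, adjusted p = 0.0377, called in no fit without 1 of the 4 mice), and Kif17, the kinesin that moves it, from 2.3 and 3.62 CPM to 34.5 and 26.0 CPM (3.44, SE 0.69, adjusted p = 0.0112). Fhl5 and Kif17 were thus near 1 to 4 CPM at PND 17, and Crem was near 90 CPM in both mice.

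Rfx2, whose family binds the motif above, rose from 39.2 and 31.6 CPM to 160 and 82.4 CPM (log2 fold change 1.76, SE 0.48, edgeR adjusted p = 0.0393). Rfx1, Rfx3 and Rfx4 had log2 fold changes of 1.38, 0.68 and 1.33 and did not pass. Tbpl1, a relative of the TATA-binding protein, rose from 102 and 77.3 CPM to 265 and 233 CPM (1.47, SE 0.24, adjusted p = 0.00503). Taf7l, an X-linked TFIID subunit, had 118 and 128 CPM and then 55.3 and 70.2 CPM, below 2-fold at an adjusted p of 0.014 (-0.97). The fits without PND 17 mouse 1 or mouse 2 called 4 and 0 members of the list, and those without PND 21 mouse 1 or mouse 2 called 6 and 10.

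The transition proteins and protamines, which package the spermatid nucleus, were measured in a low range, while Hspa2 and Hist1h1t of the same list were above 300 CPM at both ages. Of 15 members tested, 3 were called higher, Hils1, Prm3 and Chd5, beside 9.29% of all genes, and none lower. The median log2 fold change was 1.65. DESeq2 called 2 members higher and limma 1. Hils1, a spermatid linker histone, had 1.25 and 0.966 CPM at PND 17 and 39.8 and 40.8 CPM at PND 21 (5.09, SE 0.83, edgeR adjusted p = 0.00583). Tnp1, transition protein 1 (mm9 chr1:73061657-73062473), had 2.23 and 2.17 CPM at PND 17 and 11 and 11.3 CPM at PND 21. Prm1, protamine 1, had 1.39 and 0.966 CPM and then 5.72 and 6.63 CPM. At PND 28 these 2 genes stood at 1604 and 2136 CPM and at 1161 and 1386 CPM. Both PND 21 mice lay above both PND 17 mice for each of the 2 genes, as for 5708 of the 16860 genes tested. Neither gene passed, with log2 fold changes of 2.33 (SE 1.12, edgeR adjusted p = 0.202) and 2.28 (SE 1.37, adjusted p = 0.305).

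This outcome turned on PND 14 mouse 1, which is in neither age. It held 55.5 CPM of Tnp1, 35.5 CPM of Tnp2, 52.6 CPM of Prm1 and 30.8 CPM of Prm2, while PND 14 mouse 2 held 1.97, 3.02, 1.05 and 0.787 CPM. In a fit without that library, chosen after these values were seen, the SE of Tnp1 fell to 0.42 and its edgeR adjusted p was 0.00496. Tnp2 (adjusted p = 0.00997), Prm1 (0.00236), Prm2 (0.0177) and H1fnt (0.000661) were then also called, for 8 members higher. No member was called without PND 17 mouse 1 or mouse 2, and without PND 21 mouse 1 or mouse 2, 1 and 2 were. In a fit of the 4 mice alone Tnp1, Tnp2 and Prm1 were called too, at adjusted p of 0.00689, 0.0341 and 0.0146. Of the 17964 genes tested without PND 14 mouse 1, 1760 were called higher and 180 lower, and 1551 of the 1760 were among the 1566.

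**Figure D4:**
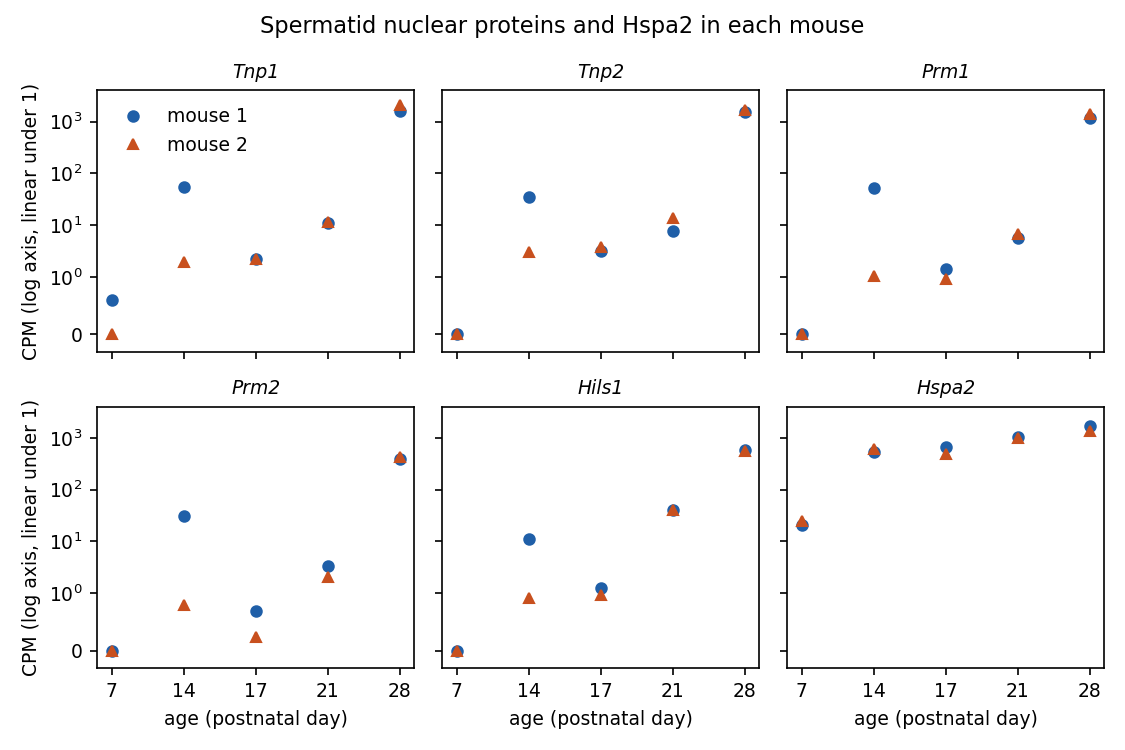
CPM (log axis, linear under 1) of 5 genes of the spermatid nucleus and of Hspa2 in each of the 10 mice by postnatal day, with circles for mouse 1 and triangles for mouse 2. Tnp1, Tnp2, Prm1, Prm2 and Hils1 stand higher at PND 21 than at PND 17 and higher again at PND 28, and PND 14 mouse 1 stands above PND 14 mouse 2 for all of them, which is not seen for Hspa2.

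Genes of meiotic prophase gave few calls. Of 47 members tested, none was called higher and 2 were called lower, beside 9.29% and 1.05% of all genes, and the median log2 fold change was -0.08. At an unadjusted p under 0.05 in edgeR, 6 were higher and 7 lower, and DESeq2 called 1 higher and 2 lower, limma none higher and 2 lower. Dmc1, the meiotic recombinase (mm9 chr15:79391930-79435529), had 75.3 and 79.7 CPM at PND 17 and 30.7 and 40.0 CPM at PND 21 (-1.13, SE 0.27, edgeR adjusted p = 0.0227). Rad21l, a cohesin subunit, had 24.6 and 28.3 CPM and then 11.2 and 11.7 CPM (-1.2, SE 0.3, adjusted p = 0.0284), a call that no fit without 1 of the 4 mice gave. Sycp3, of the synaptonemal complex, had 360 and 366 CPM and then 259 and 319 CPM (-0.33, SE 0.25, adjusted p = 0.421). Spo11, which makes the breaks of recombination, had 55.1 and 54.8 CPM and then 95 and 109 CPM and did not pass (0.89, adjusted p = 0.119). At most 1 of the 2 falls was called when a mouse was left out, without PND 21 mouse 2.

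Genes of the meiotic divisions were called higher in 4 of 46 members tested, or 8.7%, and lower in 1, or 2.17%, with a median log2 fold change of 0.31. The share higher was below the 9.29% of all genes. DESeq2 called 9 higher and none lower, and limma 2 higher and 1 lower. Ccna1, the cyclin of the male meiotic divisions, rose from 11.5 and 5.07 CPM to 110 and 83.8 CPM (3.46, SE 0.38, edgeR adjusted p = 0.00152). Aurka, a spindle kinase, rose from 33.1 and 24.9 CPM to 117 and 82.4 CPM, Plk1 from 7.87 and 7.25 CPM to 29.1 and 17.1 CPM, and Espl1, separase, from 38.4 and 38.2 CPM to 107 and 72.9 CPM. Ccna2, the cyclin of mitotic cells, fell from 52.7 and 59.7 CPM to 20.5 and 33.7 CPM (-1.04, SE 0.28, adjusted p = 0.0364). The 2 A-type cyclins thus moved in opposite directions. Members called higher numbered 2 without PND 17 mouse 1 or PND 21 mouse 1, 1 without PND 17 mouse 2 and 7 without PND 21 mouse 2.

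Spermatogonial genes were called lower in 6 of 34 members tested, or 17.6% beside 1.05% of all genes. None was called higher, beside 9.29%, and the median log2 fold change was -0.94. Stra8, which gates entry into meiosis (mm9 chr6:34870163-34889342), had 62.5 and 78.5 CPM at PND 17 and 18.6 and 32.5 CPM at PND 21 (-1.45, SE 0.29, edgeR adjusted p = 0.0114). Sohlh2, Dmrt1, Lin28a, Sall4 and Ccnd1 fell by between 1.02 and 1.17 on the log2 scale. Kit had 71.8 and 84.5 CPM and then 51.5 and 50.1 CPM (-0.62, adjusted p = 0.15), and Zbtb16, a factor of undifferentiated spermatogonia, 24.7 and 25.6 CPM and then 13.8 and 10.3 CPM (-1.07, adjusted p = 0.0768). The summed level of the list was 992 and 1132 CPM at PND 17 and 547 and 654 CPM at PND 21. Without PND 17 mouse 2 or PND 21 mouse 1 no member was called lower, without PND 17 mouse 1 there was 1, and without PND 21 mouse 2 there were 8. At an unadjusted p under 0.05, 18 members were lower and none higher in edgeR, while DESeq2 called 2 lower and limma 5.

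Regulators of RNA in germ cells were called higher in 10 of 44 members tested, or 22.7% beside 9.29% of all genes. One member, or 2.27% beside 1.05%, was called lower, and the median log2 fold change was 0.57. Tdrd6, a tudor protein of the chromatoid body, rose from 178 and 108 CPM to 1246 and 498 CPM (2.6, SE 0.44, edgeR adjusted p = 0.00561), and its 2 PND 21 mice differed by more than 2-fold. Papolb, the testis poly(A) polymerase, rose from 122 and 68.6 CPM to 525 and 487 CPM, and Pabpc2, a testis poly(A)-binding protein, from 147 and 79.5 CPM to 538 and 512 CPM. Nxf2, an X-linked RNA export factor, fell from 74.6 and 88.4 CPM to 30.3 and 46.4 CPM (-1.08, SE 0.27, adjusted p = 0.0282). Without PND 17 mouse 1, 4 were called higher, without PND 17 mouse 2 none, without PND 21 mouse 1, 3 and without PND 21 mouse 2, 11.

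The X chromosome is silenced in pachytene spermatocytes, and some X-linked genes have autosomal copies that are expressed in germ cells. Of 18 genes tested from a list of such copies, 5 were called higher, or 27.8% beside 9.29% of all genes, and none lower. The median log2 fold change was 0.71. Taf9b, Rps4y2, Atxn3, Fthl17, Nxt1, Cypt4, Pabpc6 and Usp12 of this list have no X-linked partner listed here. Cypt4 and Pabpc6 were among the genes called higher. The origin of each listed gene was not checked. The list holds Taf9b, which lies on the X chromosome in the annotation, and the 17 on autosomes had the same 5 calls and a median of 0.74. Of the 18, 1 to 4 were called higher when a mouse was left out, fewest without PND 21 mouse 1. Of 11 X-linked partners listed for the other members, 1 was called lower, or 9.09% beside 1.05% of all genes, and none higher. None had a fold change above 0, and the median was -0.79. At an unadjusted p under 0.05, 6 partners were lower and none higher, and DESeq2 and limma each called 1 lower. Pgk2, the phosphoglycerate kinase of the testis (mm9 chr17:40343963-40345554), rose from 53.1 and 20.3 CPM to 234 and 281 CPM (2.78, SE 0.4, edgeR adjusted p = 0.00384). Its partner Pgk1 was under 1 CPM in all 4 mice, a level that is uncertain since unique reads can be lost to near-identical copies. Tktl1, an X-linked transketolase, fell from 76.4 and 72.7 CPM to 22.9 and 31.2 CPM (-1.46, SE 0.31, adjusted p = 0.0148), while the autosomal Tktl2 had 88.1 and 96.9 CPM and then 114 and 124 CPM (0.37, adjusted p = 0.306).

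Over the whole X chromosome 59 of 745 genes tested were called higher, or 7.92%, and 19 lower, or 2.55%, with a median log2 fold change of -0.46. On the autosomes the shares were 9.37% and 0.982% of 16087 genes and the median was 0.02. The 9 genes of the Y chromosome that were tested had a median of -0.66 and none was called. At an unadjusted p under 0.05, 4 of them were lower in edgeR, and neither DESeq2 nor limma called any. X-linked genes that rose included Akap4, given above, and Cypt1, from 0.139 and 0.242 CPM to 8.34 and 7.68 CPM (5.47, SE 0.93, edgeR adjusted p = 0.00616). Those that fell included Tex16, from 72.0 and 89.6 CPM to 25.5 and 36.6 CPM, and Usp26, a deubiquitinase, from 79.5 and 88.4 CPM to 38.8 and 38.6 CPM (-1.12, SE 0.21, adjusted p = 0.00828). Of the 18 tested sex-linked multicopy and spermatid genes 4 were called higher, or 22.2% beside 9.29% of all genes. Another 2 were called lower, or 11.1% beside 1.05%. The median of the list was -0.56, and 6 of the 18 had a fold change above 0. DESeq2 called 5 higher and 2 lower, and limma 2 higher and 3 lower.

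Among the lists of testis somatic cell types, edgeR with every mouse in the fit called genes lower only for Sertoli cells. Of 36 Sertoli cell genes 2 were called lower, or 5.56% beside 1.05% of all genes, and none higher, with a median log2 fold change of -0.6, and the count was 0 without PND 17 mouse 1, PND 17 mouse 2 or PND 21 mouse 1 and 6 without PND 21 mouse 2. The 2 genes were Aard, from 545 and 605 CPM to 219 and 340 CPM (-1.04, SE 0.26, edgeR adjusted p = 0.0267), and Dmrt1, which the spermatogonial list also holds. Wt1, a Sertoli cell factor, had 97.5 and 117 CPM and then 56.2 and 66.5 CPM, an adjusted p of 0.0288 at under 2-fold (-0.8). Among Sertoli genes 16 were lower and none higher at an unadjusted p under 0.05. DESeq2 called none in either direction, and limma 5 lower. Amh and Clu, other Sertoli cell genes, had log2 fold changes of 0.11 and 0.01.

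None of 24 Leydig cell genes, 14 genes of peritubular myoid cells or 16 of vessels and blood was called by edgeR. Over all genes 9.29% were called higher and 1.05% lower, so lists this short could hold no gene called lower at that share. The medians of the log2 fold change were 0.09, -0.64 and -0.26. At an unadjusted p under 0.05 in edgeR, 2 Leydig genes were higher and 3 lower, 4 myoid genes and 1 vessel gene were lower, DESeq2 called none, and limma called 1 myoid gene lower. Without PND 21 mouse 2, 4 myoid genes and 1 Leydig gene were called lower, and without PND 21 mouse 1, 1 Leydig gene was called higher. The 2 PND 21 mice were far apart for some Leydig genes and close for others. Cyp17a1, an enzyme of androgen synthesis, had 48.7 and 33.8 CPM at PND 17 and 28.3 and 121 CPM at PND 21, and Star, which carries cholesterol into mitochondria, 62.4 and 112 CPM and then 13.8 and 46.4 CPM. Insl3, a Leydig cell hormone, had 15.7 and 14.5 CPM and then 29.3 and 26.9 CPM (0.89, edgeR adjusted p = 0.0937). Of 18 macrophage genes Aif1 alone was called, which is 5.56% beside 9.29% of all genes, from 2.16 and 3.14 CPM to 19.5 and 13.4 CPM (2.71, SE 0.74, adjusted p = 0.0377), and it was lost under DESeq2, limma and whenever 1 of the 4 mice was left out. Csf1r, the defining macrophage receptor, had 21.1 and 33.6 CPM and then 14.1 and 31.1 CPM.

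Collagens and other matrix genes had the second lowest median of the lists, at -0.81, and 2 of 38 members were called lower, or 5.26% beside 1.05% of all genes, and none higher. Igfbp3, which binds insulin-like growth factors, had 21.6 and 26.6 CPM at PND 17 and 6.67 and 5.93 CPM at PND 21 (-1.93, SE 0.29, edgeR adjusted p = 0.00373) and was called in each of 4 fits that left out a mouse. Mmp2, a matrix protease, fell from 21.0 and 21.7 CPM to 4.76 and 10.5 CPM. In edgeR 22 members were lower and none higher at an unadjusted p under 0.05, DESeq2 called 2 lower and limma 1. Col1a1 had 139 and 153 CPM and then 40.5 and 62.6 CPM (-1.5, SE 0.6, adjusted p = 0.132). Igfbp3 alone was called lower without any 1 of the other 3 mice, and 10 members were without PND 21 mouse 2.

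Among 27 imprinted genes 2 were called lower, or 7.41% beside 1.05% of all genes, and 1 higher, or 3.7% beside 9.29%, with a median of -0.57. H19, an imprinted non-coding RNA, fell from 9.4 and 12.1 CPM to 2.62 CPM in both PND 21 mice (-2.01, SE 0.42, edgeR adjusted p = 0.0137). Asb4, a gene of the ankyrin repeat and SOCS box family, rose from 4.94 and 3.62 CPM to 59.6 and 29.8 CPM (3.33, SE 0.48, adjusted p = 0.0033). None of the 10 genes tested of the mitochondrial genome was called, beside 10.3% of all genes, and their median was 0.41. In edgeR 1 was higher at an unadjusted p under 0.05, and DESeq2 called 1 higher.

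**Figure D5:**
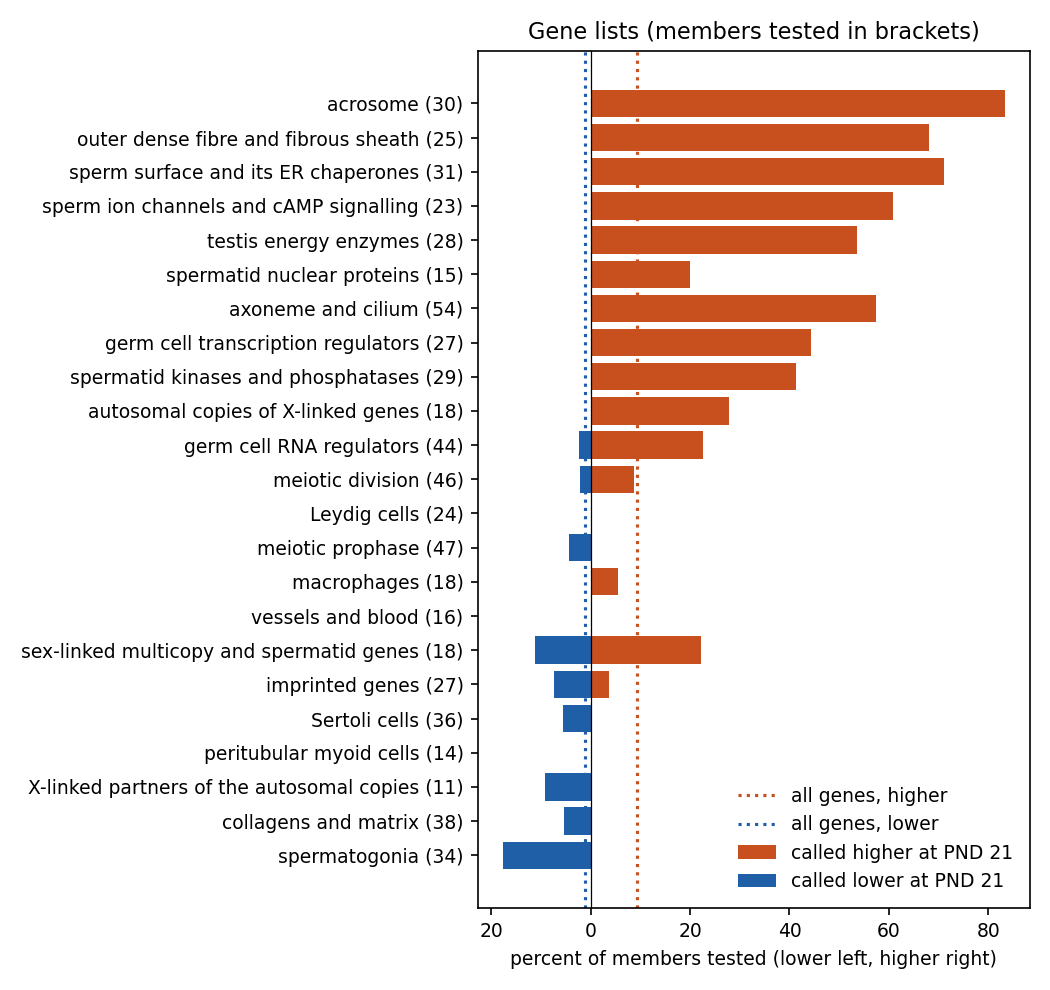
Share of the tested members of each gene list but the mitochondrial one (number in brackets) called higher (orange, to the right) or lower (blue, to the left) at PND 21, in order of the median log2 fold change, with dotted lines at 9.29% and 1.05% for all genes. Acrosome genes reach 83.3% higher, and spermatogonia are at the foot with 6 of 34 lower.

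The largest rises by fold include genes with no named function. 1700016G14Rik, annotated as a processed transcript (mm9 chr13:24833101-24838461), had 0.139 and 0.0 CPM at PND 17 and 25.7 and 25.5 CPM at PND 21 (log2 fold change 7.7, SE 0.71, edgeR adjusted p = 0.00114). Hyal5, a hyaluronidase of sperm, had 0.0 and 0.725 CPM and then 23.1 and 18.8 CPM. Fam71e2, whose 2 identifiers have the same span and identical counts, had 0.209 and 0.0 CPM and then 30.7 and 11 CPM. Ddi1, Ccdc81 and 4921501E09Rik rose by 6.76, 6.45 and 6.36 on the log2 scale. Genes with a RIKEN clone name were called higher in 354 of 1611 tested, or 22.0%, against 7.95% of the other 15249. Processed transcripts were called higher in 112 of 575 (19.5%) and protein-coding genes in 1375 of 14900 (9.23%). For lincRNA genes it was 46 of 464 (9.91%), with none lower. Of these, 4 were lower at an unadjusted p under 0.05 in edgeR, and none by DESeq2 or limma.

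By difference of the mean CPM the largest rises were in Ldhc, Slc2a3, Phf7, Dnahc8, Crisp2, Adam5, Fhl4, Atp8b3, Tdrd6 and the small nucleolar RNA AC159323.1. Fhl4, a LIM protein of the testis, went from 673 and 356 CPM to 1819 and 1842 CPM (log2 fold change 1.83, SE 0.34, edgeR adjusted p = 0.00786). Crisp2, a cysteine-rich protein of the acrosome and tail, went from 458 and 234 CPM to 1081 and 1166 CPM (1.7, SE 0.37, adjusted p = 0.0192). In Ldhc, Slc2a3, Phf7, Crisp2, Fhl4, Adam5 and Atp8b3 the 2 PND 17 mice differed by a larger ratio than the 2 PND 21 mice. In these genes mouse 1 was the higher one at PND 17.

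The largest falls by fold were Serpina1f and Akr1b7, and both depended on PND 17 mouse 1. Serpina1f, a serpin of the epididymis (mm9 chr12:104926254-104933739), had 49.4 and 0.725 CPM at PND 17 and 0.0 and 0.175 CPM at PND 21 (-7.79, SE 2.29, edgeR adjusted p = 0.0458). Akr1b7, an aldose reductase-like enzyme abundant in the vas deferens, had 50.2 and 2.17 CPM and then 0.238 and 0.873 CPM (-5.46, SE 1.36, adjusted p = 0.027). Each was called in 1 of the 4 fits that left out a mouse, the fit without PND 17 mouse 2, and without PND 17 mouse 1 the log2 fold changes were -2.66 and -1.86.

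A list of 29 genes of the epididymis and vas deferens, chosen after these values were seen, was looked up in every mouse. Its summed level was 425 and 107 CPM at PND 17 and 65.5 and 91.5 CPM at PND 21. Of the 29 genes, 16 were higher in PND 17 mouse 1 than in mouse 2 and 8 were at 0 in all 4 mice. Crisp1, abundant in the epididymis, had 169 CPM in PND 17 mouse 1 and 0.483 CPM in mouse 2, Adam7 12.1 and 0.0 CPM, and Lcn5 4.11 and 0.242 CPM, while Gpx5 and Lcn8 were at 0 in both. The list holds 3 genes called lower, Serpina1f, Akr1b7 and Wfdc10, of which Wfdc10 had 86.0 and 73.4 CPM at PND 17 and 22.4 and 43.6 CPM at PND 21. The part of such tissue in other falls was not tested.

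The 2 PND 17 mice differed by less than 2-fold for the other large falls named next. Spp1, the secreted phosphoprotein osteopontin, had 56.9 and 41.5 CPM and then 8.81 and 11.9 CPM (-2.25, SE 0.4, edgeR adjusted p = 0.00712). Cnn3, a calponin of smooth muscle and other cells, had 44.0 and 40.3 CPM and then 10.2 and 17.1 CPM (-1.61, SE 0.26, adjusted p = 0.00503) and was called in all 4 fits that left out a mouse. Ildr2, Sfrp1, Gpc3, Pramef12 and Pcdh7 fell by between 1.56 and 2.04 on the log2 scale. Sfrp1, Gpc3 and Pcdh7 were called in 1 of those 4 fits and Ildr2 and Pramef12 in none, and Spp1 in 2.

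By difference of the mean CPM the largest falls were in Snord15b and Rps3, which cannot be told apart. Rps3, a protein of the small ribosomal subunit, had 1942 and 2058 CPM at PND 17 and 835 and 820 CPM at PND 21 (-1.27, SE 0.36, edgeR adjusted p = 0.0449). Snord15b, a small nucleolar RNA that lies within its span (mm9 chr7:106628073-106628217), had 1696 and 1814 CPM and then 702 and 632 CPM (-1.39, SE 0.41, adjusted p = 0.0487). No fit without one of the 4 mice called either. Txnip, a thioredoxin-binding protein, fell from 333 and 319 CPM to 152 and 158 CPM (-1.08, SE 0.22, adjusted p = 0.0119).

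The same genes were read in mice that the comparison did not use. Between PND 28 and PND 14, 1531 of the 1566 genes called higher at PND 21 were also called higher, or 97.8%, and none lower, beside 24.3% of all genes tested. Of the 177 called lower, 124 were also lower at PND 28, or 70.1%, beside 13.4% of all genes, and 2 were higher. The median log2 fold change of PND 28 over PND 14 was 3.99 over the genes called higher, -1.37 over those called lower and -0.06 over all genes. Both comparisons came from the same fit and share its spread, so the 2 sets of calls are not independent. Without PND 14 mouse 1, 1678 of 1760 genes called higher and 123 of 180 called lower had the same call at PND 28. AC159323.1 went from 319 and 309 CPM to 1382 and 1096 CPM at PND 21 and had a mean of 369 CPM at PND 28 and 337 CPM at PND 14.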

How the data were processed

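Whole testes of 10 C57BL/6NHsd mice, 2 at each of PND 7, 14, 17, 21 and 28, were collected by the authors. After ribosomal RNA was removed, libraries were read on a SOLiD 4, and the authors mapped the reads to mm9 with LifeScope and assigned unique reads to Ensembl genes. The authors deposited raw counts per gene, with no normalization, which are the values analysed here. The authors also deposited RPKM values, counts divided by exon length and library total, which were used in an alternative only. Barcodes of a PND 7 mouse were summed.

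The 37675 listed genes were matched to GENCODE by identifier, and 37310 had identical mm9 coordinates. Counts were fitted with edgeR 4.0.16 in R 4.3.3 (TMM, filterByExpr, quasi-likelihood test) over all 10 mice. With 2 mice against 2, the smallest exact permutation p for a single gene is 0.333, so all calls rest on the spread shared across genes. Alternatives used DESeq2 1.42.0, limma 3.58.1 on log2(RPKM + 1) or log2(RPKM + 0.1) under an unadjusted p of at most 0.01, a 2-fold change and a difference of 10 RPKM, other scaling and filters, the 4 mice alone, a replicate block, a thinned library and leaving out mice. The fit without PND 14 mouse 1 was added after the data were seen. The fit was also run on simulated data, and the outcome is not reported here. Figures used Python 3.11.15 with numpy 2.4.6, pandas 2.3.3 and matplotlib 3.10.9.

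Named genes were the 12 largest rises and falls by fold with a mean of at least 10 CPM and no overlap, the 10 largest by CPM, up to 4 called members of each of 24 lists with at least 5 CPM, and fixed markers. Of 707 list symbols 698 were matched. The comparison, the lists and the rules were chosen with earlier results of these data known. Further members, named to describe their lists, were chosen after their values were seen. Some genes that the rule names are not reported here. Protein sequences were not used here.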

Additional observations from a re-analysis of the deposited data

How the results depend on the processing

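The number of genes called was 1743 (1566 higher, 177 lower). With limma under the criteria on RPKM it was 821 (684 higher) at a pseudocount of 1 and 748 (590 higher) at 0.1. The number lower was 111 with RLE scaling, 341 with library totals, 486 with no filter on low counts, 287 with the 4 mice alone and 294 with no requirement of a 2-fold change. Library totals gave 79.1% of the calls higher in place of 89.8% and moved the median of all genes to -0.1, RLE to 0.1. When a mouse was left out, PND 14 mouse 1 included, the number called lay between 266 (without PND 17 mouse 2) and 1940 (without PND 14 mouse 1), the number higher between 255 and 1760, and the number lower between 5 (without PND 21 mouse 1) and 446 (without PND 21 mouse 2). The 1655 genes with the same call between PND 28 and PND 14 lay between 260 and 1801 in these fits, and the fit of 4 mice cannot give that number. Mouse numbers did not pair the samples: the differences between mouse 1 and mouse 2 at PND 17 and PND 21 correlated at -0.022 across genes, and the replicate block gave 1571 calls (1411 higher, 160 lower). DESeq2 called 2072 higher and 137 lower, and thinning PND 17 mouse 1 left 1453 and 159. Of 2282 values of 142 named genes under these settings, 1890 kept their direction and side of the threshold, 359 lost the call, 33 gained it and none reversed a called direction. Of 816 list counts, 172 moved by more than 1.5 times. The causes were not tested. The depth of 3994026 counts in the shallowest of the 4 libraries limits genes under about 1 CPM.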

Other observations

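Values of the epididymal and late spermatid transcripts in the mice outside the comparison were as follows. Crisp1 was at 62.5 CPM in PND 7 mouse 2 and at 0.3 CPM in PND 7 mouse 1. Gpx5 and Adam7 were at 8.57 and 5.58 CPM in PND 28 mouse 1 and at 0.0 CPM in PND 28 mouse 2. Hils1 was at 11.3 CPM in PND 14 mouse 1 and at 0.919 CPM in PND 14 mouse 2, and H1fnt at 8.02 and 0.131 CPM. In both PND 7 mice Tnp2, Prm1, Prm2 and Hils1 were at 0.0 CPM.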
